A study of Mus musculus with 8 samples.

Results

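The genes of the mouse mitochondrial chromosome were described in leukaemia cells from mice given AG636 or vehicle. The members were all rows of the deposited count table placed on the mitochondrial chromosome, 37 of 54838 genes: 13 messenger RNA (mRNA), 2 ribosomal RNA (rRNA) and 22 transfer RNA (tRNA) genes. Of these, 28 lie on the plus strand (12 mRNA, 2 rRNA and 14 tRNA genes) and 9 on the minus strand (mt-Nd6 and 8 tRNA genes), in coordinates of mm10 (GRCm38). All 8 samples were acute myeloid leukaemia (AML) cells carrying the RUNX1-RUNX1T1 fusion on a C57BL/6 background, grown in Ptprca recipient mice that, per the labels, had been irradiated below a lethal dose. The groups differed in treatment alone, as the labels give them: 4 Vehicle samples and 4 samples from mice that received AG636 orally, b.i.d., at 100 mg/kg. The study describes treatment for 1 day. It gives the sorted cells of this model as cKit high in its results and as cKit+ and CD11b- in a figure legend. Its methods name sorted AML cells as cKit high and CD11b low. The age of the mice was not stated. The labels name bone marrow and spleen without saying which sample came from which, and the study gives fewer mice per group than there are samples here. Where a mouse gave more than 1 sample, the errors and p-values below rest on fewer independent animals. In such bulk samples, fewer cells of a type and less RNA per cell cannot be told apart.

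AG636 inhibits DHODH, an enzyme of the inner mitochondrial membrane that makes pyrimidines and passes electrons to the respiratory chain. The mitochondrial chromosome is a small circle. Each of its strands is transcribed as long RNAs that run through many genes and are cut apart, mostly at the tRNAs that lie between the others. Its mRNAs encode subunits of complexes I, III, IV and V of the respiratory chain, its rRNAs form the core of the mitochondrial ribosome, and its tRNAs serve that ribosome. Most mitochondrial mRNAs receive a poly-A tail, the rRNAs a short one, and mature tRNAs end in CCA. All other proteins of mitochondria are encoded in the nucleus.

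The assay matters for these RNAs. QuantSeq libraries are primed on runs of A and read the 3′ end of a transcript, so a count reflects tailed or A-rich RNA. Whether the authors counted by strand, and how reads that fit several places or several genes were treated, is not stated in the sources used here. Several mitochondrial genes overlap a neighbour, and the gene ends at which this matters are given here from the GENCODE M21 transcripts (GRCm38, written as DNA, 5′ to 3′ on the gene's own strand). For all 37 genes the start, end and strand in that release were the same as in the count table. In the first group, capitals mark bases shared with the overlapping gene: mt-Atp8 shares 43 bases with mt-Atp6, mt-Nd4l shares 7 with mt-Nd4, and mt-Nd5 shares 14 with mt-Nd6 on the opposite strand. Each line is the last 60 bases of the gene.
mt-Atp8, chrMT:7910-7969, plus strand: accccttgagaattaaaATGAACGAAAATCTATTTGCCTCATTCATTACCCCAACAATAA
mt-Nd4l, chrMT:10114-10173, plus strand: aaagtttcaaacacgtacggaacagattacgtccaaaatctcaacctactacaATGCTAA
mt-Nd5, chrMT:13506-13565, plus strand: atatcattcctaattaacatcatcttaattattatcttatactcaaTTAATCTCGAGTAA
mt-Nd6, chrMT:13552-13611, minus strand: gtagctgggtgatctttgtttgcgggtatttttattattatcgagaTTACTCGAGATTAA

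The tRNA genes below are those that passed the test of AG636 against Vehicle. In mt-Ti and mt-Tq, which lie on opposite strands, capitals mark the 3 bases they share, and the other sequences carry no capitals.
mt-Tv, chrMT:1025-1093, plus strand: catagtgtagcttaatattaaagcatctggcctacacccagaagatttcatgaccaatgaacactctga
mt-Tl1, chrMT:2676-2750, plus strand: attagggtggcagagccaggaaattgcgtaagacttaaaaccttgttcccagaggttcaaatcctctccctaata
mt-Ti, chrMT:3706-3774, plus strand: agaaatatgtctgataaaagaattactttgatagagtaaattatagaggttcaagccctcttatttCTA
mt-Tq, chrMT:3772-3842, minus strand: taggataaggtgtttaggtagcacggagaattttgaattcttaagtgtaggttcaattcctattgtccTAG
mt-Tm, chrMT:3845-3913, plus strand: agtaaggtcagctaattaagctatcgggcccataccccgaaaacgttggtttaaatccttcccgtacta

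The ends of the mRNAs with the largest falls and of mt-Co1, which had no detectable change, are shown for comparison, with the last codon or the part of it that the chromosome encodes in capitals. The genes of mt-Cytb (1144 bases), mt-Nd4 (1378 bases) and mt-Co3 (784 bases) leave 1 base over when their length is divided by 3, and end in a single T. In such mRNAs the stop codon is known to be completed by the poly-A tail.
mt-Cytb, chrMT:15229-15288, plus strand: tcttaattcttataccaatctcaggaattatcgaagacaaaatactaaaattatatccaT
mt-Nd4, chrMT:11485-11544, plus strand: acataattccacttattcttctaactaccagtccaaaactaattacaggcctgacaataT
mt-Co1, chrMT:6813-6872, plus strand: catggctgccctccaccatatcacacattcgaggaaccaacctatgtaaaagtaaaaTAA

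The samples held 6120030 to 7162036 counts, of which 7.59 to 8.10% in Vehicle and 5.74 to 8.28% in AG636 fell on the mitochondrial chromosome. Levels are given as CPM, the counts of a gene scaled to the effective library size, at which 3 counts correspond to 0.434 to 0.479 CPM. A gene was called when the limma-voom adjusted p over the 10911 genes tested was under 0.05. In the multidimensional scaling of all genes, AG636 sample 3 and Vehicle sample 4 stood apart from their groups. Kit was present in every sample, with means of 163 CPM in Vehicle and 206 CPM in AG636. Markers of the immature myeloid list were mixed. Myb, a progenitor transcription factor, had means of 447 CPM in Vehicle and 579 CPM in AG636, and Spi1, a myeloid transcription factor, 35.9 and 47.6 CPM. Mpo, the granule enzyme myeloperoxidase, had means of 3.18 and 2.47 CPM, and Cebpa, another myeloid transcription factor, was at 0 in every Vehicle sample. None of the 8 tested genes of this 12-gene list was called. The 9 erythroid markers summed to 2468 to 6239 CPM in Vehicle and 4828 to 6305 CPM in AG636, with Hbb-bt, a beta globin, called higher.

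The members moved in both directions. Of the 37 genes, 26 passed the filter on low counts (11 mRNA, 2 rRNA and 13 tRNA genes), and 5 of these were called higher and 10 lower in AG636. Over all tested genes, 5.47% were called higher and 8.49% lower. The 9 mRNA genes called lower all lie on the plus strand, and no mRNA gene was called higher. The called members that rose were mt-Rnr1 and the plus-strand tRNA genes mt-Tv, mt-Tl1, mt-Ti and mt-Tm, while 1 minus-strand tRNA gene, mt-Tq, fell. Of the 4 tRNA genes called higher, mt-Tv and mt-Tl1 passed the filter on their AG636 counts, and 2 were called higher where 10 counts were required in every sample. The median log2 fold change was −1.27 over the tested mRNA genes and −0.01 over all tested genes. The genes below the filter were mt-Nd3, mt-Nd4l and 9 tRNA genes, which are described by their counts.

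**Figure D1:**
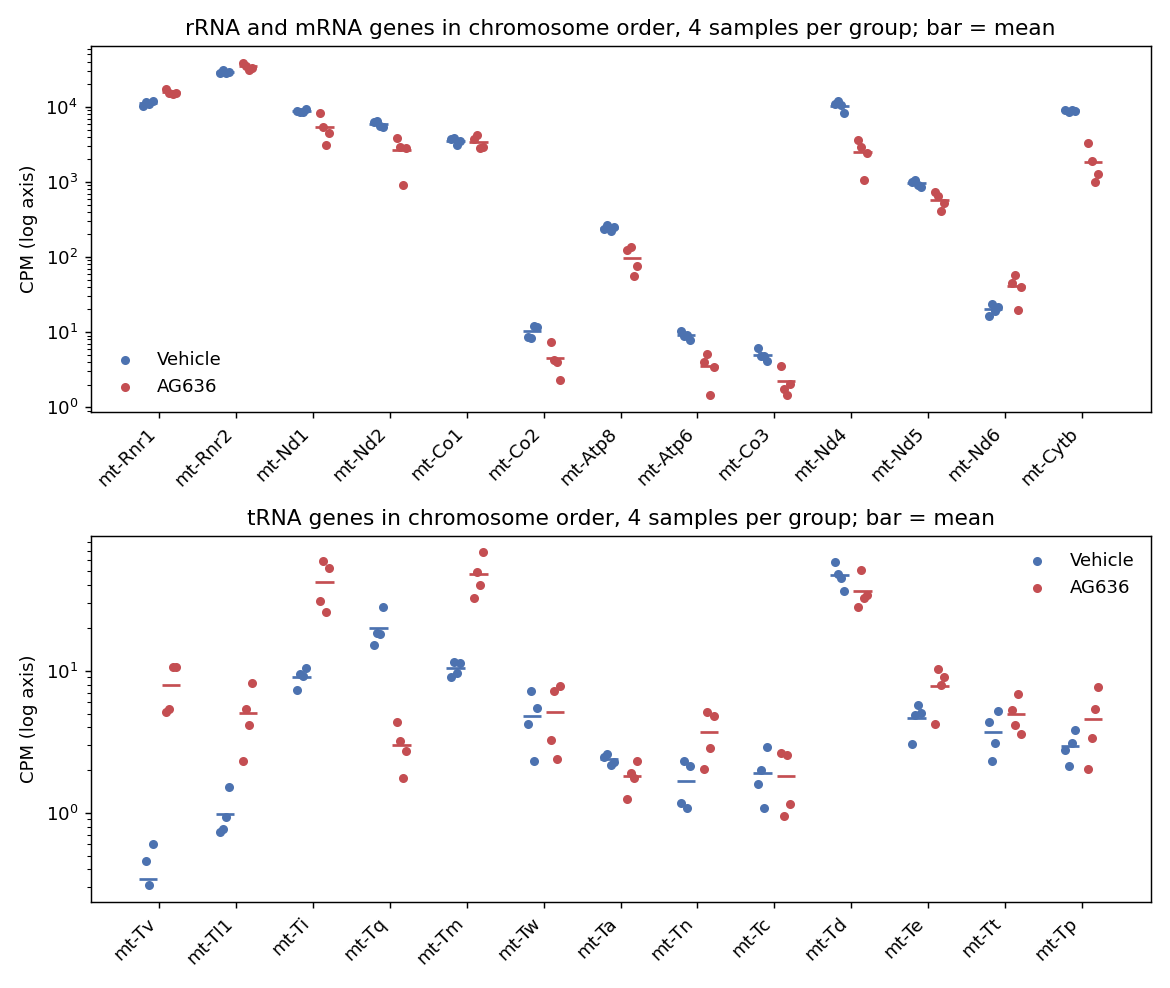
CPM of the 26 tested mitochondrial genes on log axes, in chromosome order, for 4 Vehicle and 4 AG636 samples, with the bar at the group mean. A Vehicle sample with 0 counts for mt-Tv is not drawn. The groups are apart for mt-Cytb, mt-Nd4 and mt-Tq, which lie lower in AG636, and for mt-Tv, mt-Ti and mt-Tm, which lie higher.

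The largest falls among the mRNAs were in mt-Cytb and mt-Nd4. mt-Cytb, which encodes cytochrome b, the only complex III subunit made in mitochondria, stood at 9212, 8669, 9114 and 8913 CPM in the Vehicle samples and at 3280, 1895, 1008 and 1282 CPM in the AG636 samples. The highest AG636 sample lay far below the lowest Vehicle sample. The mean fell from 8977 ± 240.1 to 1866 ± 1013 CPM (SD, n = 4), to 18.8% of Vehicle in the fit, with a log2 fold change of −2.41 (limma SE 0.30, 95% interval −3.06 to −1.76, adjusted p = 0.00178). mt-Nd4, a core subunit of complex I, stood at 10828, 11881, 10723 and 8277 CPM in Vehicle and at 3613, 2915, 1053 and 2451 CPM in AG636. Its groups were also apart, with Vehicle sample 4 the lowest of its group and AG636 sample 3 the lowest of all. Its log2 fold change was −2.18 (limma SE 0.32, adjusted p = 0.00308), which corresponds to 22.1% of Vehicle.

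Among the other complex I genes mt-Nd1, mt-Nd2 and mt-Nd5 also fell. mt-Nd2 stood at 6327, 6535, 5623 and 5388 CPM in Vehicle and at 3849, 2951, 900 and 2838 CPM in AG636. Its groups did not overlap, and the fit gave a log2 fold change of −1.36 (limma SE 0.36, adjusted p = 0.0325). This call was lost without any 1 of the 4 Vehicle samples, over a range of adjusted p from 0.00312 to 0.0836. mt-Nd1 stood at 8729, 8471, 8492 and 9512 CPM in Vehicle and at 8371, 5340, 3110 and 4506 CPM in AG636, so that AG636 sample 1 lay just under the lowest Vehicle sample. Its log2 fold change was −0.81 (limma SE 0.24, adjusted p = 0.0436), and the call was lost with edgeR's quasi-likelihood test (adjusted p = 0.0670), with upper-quartile factors, with library size alone and without any 1 of 6 samples, over a range of adjusted p from 0.00840 to 0.109. mt-Nd5 stood at 991, 1054, 917 and 866 CPM in Vehicle and at 739, 654, 413 and 521 CPM in AG636. These groups were apart, and mt-Nd5 had the smallest fall among the called mRNAs at a log2 fold change of −0.75 (limma SE 0.16, adjusted p = 0.0135).

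Complex V is represented by mt-Atp8 and mt-Atp6, subunits of the membrane part of ATP synthase. mt-Atp8 stood at 233, 268, 225 and 249 CPM in Vehicle and at 125, 135, 56.0 and 76.6 CPM in AG636, a log2 fold change of −1.40 (limma SE 0.23, adjusted p = 0.00472). mt-Atp6 stood at 10.2, 8.91, 9.28 and 7.76 CPM in Vehicle and at 4.04, 5.11, 1.44 and 3.47 CPM in AG636, a log2 fold change of −1.47 (limma SE 0.31, adjusted p = 0.0131). For both genes every AG636 sample lay below every Vehicle sample.

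The counts of the mRNAs of complex IV, cytochrome c oxidase, did not move together. mt-Co1, its catalytic subunit, stood at 3734, 3848, 3098 and 3495 CPM in Vehicle and at 3743, 4274, 2795 and 2934 CPM in AG636. The groups overlapped, with AG636 sample 2 the highest and AG636 sample 3 the lowest of all 8 samples. The log2 fold change of mt-Co1 was −0.06 (limma SE 0.14, 95% interval −0.37 to 0.25, adjusted p = 0.804), and its sign turned with library size alone (0.0082). mt-Co2, another core subunit, had means of 10.2 ± 2.04 and 4.52 ± 2.15 CPM (SD, n = 4) and a log2 fold change of −1.27 (limma SE 0.31, adjusted p = 0.0217). mt-Co3 had means of 4.95 ± 0.843 and 2.20 ± 0.950 CPM and a log2 fold change of −1.21 (limma SE 0.30, adjusted p = 0.0247). These last values rest on few counts, 385 for mt-Co2 and 188 for mt-Co3 over all 8 samples. The call of mt-Co2 was lost in 4 of 20 alternatives, among them leaving out Vehicle sample 3 or 4, over adjusted p of 0.00544 to 0.0663. That of mt-Co3 was lost in 6 of 19, among them leaving out Vehicle sample 1, 2 or 3 or AG636 sample 2 or 4, over adjusted p of 0.0156 to 0.0720. The upper limit of the interval for mt-Co2 was −0.59 and that for mt-Co3 was −0.54, both below the lower limit of −0.37 for mt-Co1, a comparison of intervals and not a test of the difference. In mt-Co1 and mt-Co2 100% of the last 250 stretches of 50 bases also occur in other transcripts, and in mt-Co3 99.6%. How such reads were counted is not stated, and the part of this in the difference between these genes was not tested.

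The number of mRNAs called depended on single samples. It was 5 without Vehicle sample 3, 6 without Vehicle sample 1, 2 or 4, and 6 without Vehicle sample 4 and AG636 sample 3 together, an alternative chosen after the data were seen. mt-Cytb, mt-Nd4, mt-Atp8, mt-Atp6 and mt-Nd5 stayed called lower in each alternative fit that tested them, at the threshold of 0.05. Of these genes, mt-Atp6 was not tested where 10 counts were required in every sample. AG636 sample 3 had the lowest value of all 8 samples in 9 of the 10 tested plus-strand mRNAs, and AG636 sample 1 the highest value of its group in 7 of them. The spread within AG636 was accordingly wide: the coefficient of variation of mt-Cytb was 2.67% in Vehicle and 54.3% in AG636, and that of mt-Nd2 was 9.21% and 47.1%. For mt-Co1 it was 9.35% and 20.3%.

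**Figure D2:**
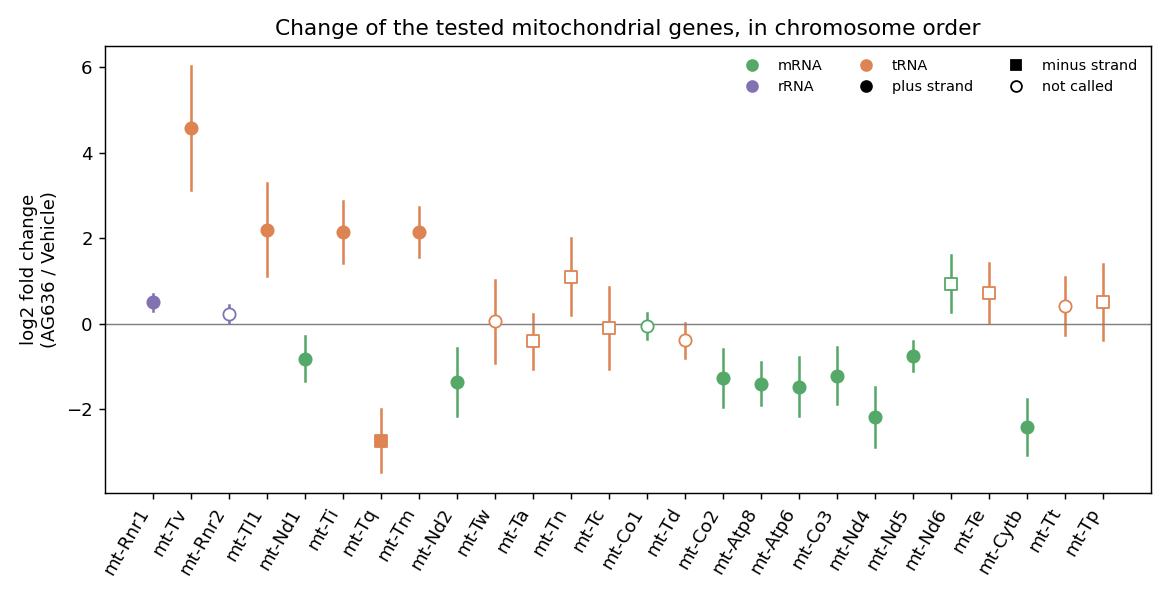
Log2 fold change of AG636 over Vehicle for the 26 tested mitochondrial genes in chromosome order, with 95% intervals from the limma-voom fit. Filled symbols are called genes, circles lie on the plus and squares on the minus strand. The plus-strand mRNAs lie below 0, though mt-Co1 turned to 0.0082 with library size alone, and the called tRNA genes on the plus strand lie between 2.14 and 4.58.

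The makeup of the mitochondrial counts was therefore different between the groups. These shares are a description with no test. Of all counts, the mRNA genes held 3.79 ± 0.131% (SD, n = 4; range 3.63 to 3.94%) in Vehicle, against 1.68 ± 0.618% (range 0.959 to 2.45%) in AG636. The rRNA genes held 3.74 to 4.15% and 4.76 to 5.82%. Within the mitochondrial counts, mRNA made up 48.8 ± 1.55% in Vehicle and 24.0 ± 5.49% in AG636, and rRNA 51.0 ± 1.55% and 75.8 ± 5.46%. For each of these measures the groups did not overlap, whereas the share of all 37 genes in all counts did overlap, with AG636 sample 1 the highest of the 8 samples.

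Among the mRNA counts the order of the genes changed. mt-Nd4 took the largest share in Vehicle (26.7 ± 2.90%), followed by mt-Cytb (23.1 ± 1.33%) and mt-Nd1 (22.7 ± 2.23%), and these 3 neighbours in the order overlapped. In AG636 the largest shares were those of mt-Nd1 (32.1 ± 2.62%) and mt-Co1 (22.3 ± 5.96%), while mt-Nd2 (15.3 ± 4.10%), mt-Nd4 (14.8 ± 2.44%) and mt-Cytb (10.9 ± 2.10%) followed, and each neighbour in this order overlapped the next. mt-Co1 had held 9.09 ± 0.664% in Vehicle. Per kilobase of gene, the mean level in Vehicle was 18645 CPM for mt-Rnr2, 11740 for mt-Rnr1, 9197 for mt-Nd1, 7847 for mt-Cytb, 7567 for mt-Nd4, 5750 for mt-Nd2 and 2294 for mt-Co1, on a scale that divides by gene length although the assay reads gene ends.

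**Figure D3:**
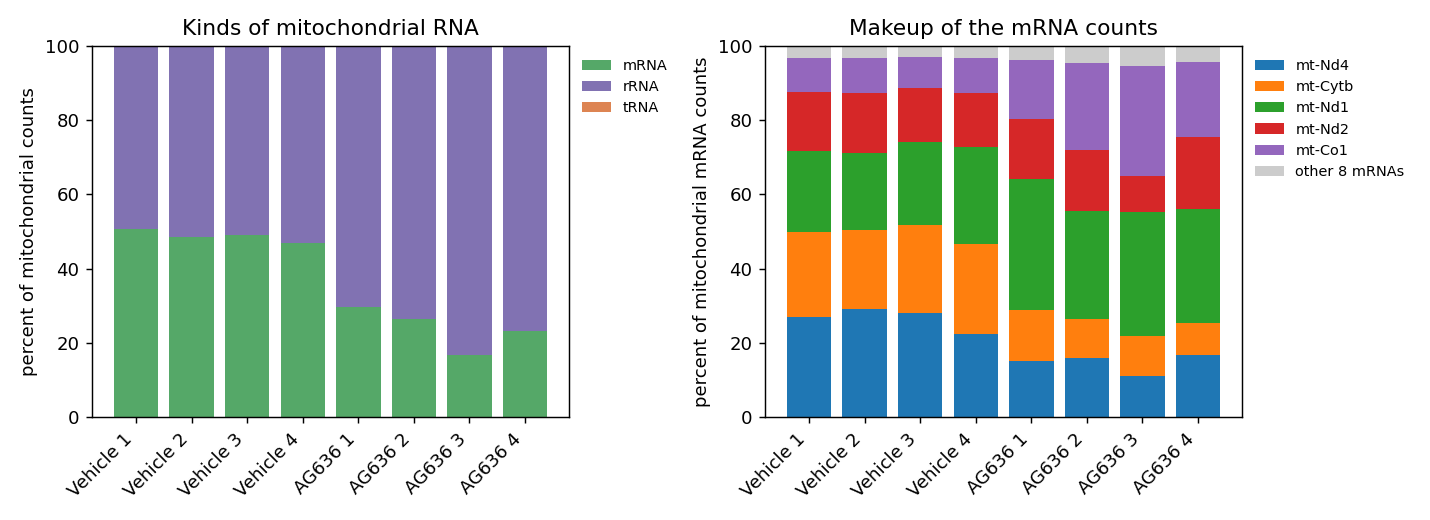
Percent of mitochondrial counts by kind of RNA (left) and percent of mitochondrial mRNA counts by gene (right), one bar per sample. rRNA makes up 49.2 to 53.0% of the mitochondrial counts in Vehicle and 70.3 to 83.0% in AG636. The tRNA share, at most 0.359%, is too thin to see.

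Of the rRNA genes, mt-Rnr1 rose and mt-Rnr2 was not called. mt-Rnr1, the 12S rRNA of the small ribosomal subunit, stood at 10306, 11800, 10837 and 11903 CPM in Vehicle and at 17475, 15343, 15073 and 15525 CPM in AG636. The groups were apart, with a log2 fold change of 0.50 (limma SE 0.09, adjusted p = 0.00705), and this call was kept in each alternative fit. mt-Rnr2, the 16S rRNA of the large subunit, stood at 28689, 31123, 28543 and 29631 CPM in Vehicle and at 39012, 35365, 31455 and 32759 CPM in AG636. The groups did not overlap, which held for 9.35% of all tested genes in this direction. The log2 fold change of mt-Rnr2 was 0.23 (limma SE 0.10, 95% interval 0.02 to 0.44) and was not called (limma adjusted p = 0.134), although DESeq2 (adjusted p = 0.0317) and the fit with no filter (adjusted p = 0.0255) did call it, within a range of 0.0255 to 0.475 over the alternatives.

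The ratio of the rRNAs also moved. There were 0.359, 0.379, 0.380 and 0.402 counts of mt-Rnr1 for each count of mt-Rnr2 in Vehicle, and 0.448, 0.434, 0.479 and 0.474 in AG636. The groups did not overlap. The log2 ratio rose by 0.27 (two-sided exact permutation test over 4 against 4 samples, p = 0.0286, adjusted p = 0.0429 over the 3 ratios that could be compared), and the unadjusted p is the smallest that the 70 relabellings can give. A ratio within a library does not depend on the scaling between libraries.

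The tRNA genes gave few counts, 0.0102 to 0.0117% of the total in Vehicle and 0.0132 to 0.0238% in AG636. Of the 14 plus-strand tRNA genes 7 were tested and 4 were called higher, or 2 (mt-Ti and mt-Tm) where 10 counts were required in every sample. Of the 8 minus-strand genes 6 were tested and 1 was called lower. The 4 genes called higher lie between bases 1025 and 3913, but with no filter 6 were called higher, the others being mt-Tg and mt-Tl2, which lie further along the strand.

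mt-Tv, the valine tRNA between the rRNA genes, had 0, 3, 2 and 4 counts in the Vehicle samples and 33, 34, 67 and 73 counts in the AG636 samples. The summed counts gave a ratio of 23.5 with a 95% counting interval of 12.1 to 52.0, and the fit a log2 fold change of 4.58 (limma SE 0.65, adjusted p = 0.00278), the highest of any tested gene. mt-Tl1, the leucine tRNA after mt-Rnr2, had 5, 5, 6 and 10 counts in Vehicle and 15, 34, 26 and 57 in AG636, a log2 fold change of 2.20 (limma SE 0.50, adjusted p = 0.0166). This call was lost without Vehicle sample 1, 2 or 3, at adjusted p of 0.0569 to 0.0598, within a range of 8.2e-05 to 0.0598 over the alternatives. Both genes passed the filter on the counts of the AG636 samples, and neither was tested where 10 counts were required in every sample. Counting intervals cover counting error only, since reads without molecular identifiers are not independent molecules.

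The genes for the isoleucine, glutamine and methionine tRNAs lie side by side between mt-Nd1 and mt-Nd2, and the middle gene is on the opposite strand. mt-Ti stood at 7.28, 9.53, 9.13 and 10.5 CPM in Vehicle and at 30.9, 58.9, 26.0 and 53.0 CPM in AG636, a log2 fold change of 2.14 (limma SE 0.33, adjusted p = 0.00397). mt-Tm stood at 9.03, 11.5, 9.59 and 11.4 CPM and at 32.7, 49.96, 39.9 and 68.1 CPM, a log2 fold change of 2.15 (limma SE 0.27, adjusted p = 0.00179). In both genes every AG636 sample lay well above every Vehicle sample. mt-Tq went the other way, from 15.2, 18.6, 18.3 and 28.3 CPM to 4.35, 3.19, 1.76 and 2.75 CPM. Its log2 fold change of −2.73 (limma SE 0.33, adjusted p = 0.00178) was the lowest of any tested gene. The calls of mt-Tv, mt-Ti, mt-Tm and mt-Tq were kept in each alternative fit that tested them. Without knowing that strand was used in counting, reads from mt-Tq cannot be told apart from reads of plus-strand RNA that runs through it.

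The other 8 tested tRNA genes were not called. mt-Tn, the asparagine tRNA, had means of 1.67 ± 0.636 and 3.69 ± 1.49 CPM (SD, n = 4) and a log2 fold change of 1.10 (adjusted p = 0.0948 by limma). mt-Te, the glutamate tRNA, had a value of 0.71 (adjusted p = 0.159), mt-Td, the aspartate tRNA with the most counts of all tRNA genes, −0.39 (adjusted p = 0.192), and mt-Tp 0.51, mt-Tt 0.42, mt-Tw 0.06, mt-Tc −0.10 and mt-Ta −0.41, each with an adjusted p from limma of 0.371 or above. Their intervals differed in width, for example −0.91 to 1.03 for mt-Tw and −0.80 to 0.03 for mt-Td. For mt-Tw, changes of about the size of its interval were not detectable at this depth. The intervals of mt-Tn (0.20 to 1.99) and mt-Te (0.008 to 1.42) lay above 0, and each was called higher in 1 alternative. mt-Td reached 58.7, 48.3, 45.2 and 36.5 CPM in Vehicle and 28.3, 51.1, 32.7 and 34.3 CPM in AG636, and its groups overlapped.

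The 9 tRNA genes below the filter are described by their counts summed over the 4 samples of each group. mt-Tl2, the second leucine tRNA, had 0 counts in Vehicle and 2, 6, 3 and 7 counts in AG636, at least 6.12-fold higher when Vehicle is set to a floor of 3 counts over the group. mt-Tg, the glycine tRNA between mt-Co3 and mt-Nd3, had 12 counts in Vehicle and 102 in AG636, a ratio of 8.67 with a counting interval of 4.76 to 17.3. mt-Th had 6 and 30 counts (ratio 5.10, interval 2.09 to 14.99), mt-Tk 9 and 26 (2.95, 1.34 to 7.15) and mt-Ts1 18 and 37 (2.10, 1.16 to 3.91). The intervals of mt-Tf (2 and 9 counts), mt-Tr (12 and 16), mt-Ts2 (1 and 7) and mt-Ty (1 and 1) included 1. Except for mt-Ts1 and mt-Ty, these 9 genes lie on the plus strand.

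The only mRNA gene of the minus strand, mt-Nd6, a complex I subunit, did not follow the others. It stood at 16.5, 23.8, 19.0 and 21.5 CPM in Vehicle and at 45.6, 58.4, 19.9 and 40.2 CPM in AG636. AG636 sample 3 lay within the Vehicle range and the other AG636 samples above it. The log2 fold change was 0.94 (SE 0.30, 95% interval 0.28 to 1.597) and was not called (limma adjusted p = 0.0610), while edgeR (adjusted p = 0.0282), DESeq2 (adjusted p = 0.00193) and the fit without AG636 sample 3 (1.24, adjusted p = 0.00287) called it higher, within a range of 0.00193 to 0.152 over the alternatives. mt-Nd6 overlaps mt-Nd5 at its 3′ end, as printed above, and the counts of mt-Nd6 for each count of mt-Nd5 were 0.0166, 0.0226, 0.0207 and 0.0248 in Vehicle and 0.0616, 0.0894, 0.0483 and 0.0772 in AG636. The groups did not overlap, including AG636 sample 3. The log2 ratio rose by 1.68 (two-sided exact permutation p = 0.0286, the smallest possible, adjusted p = 0.0429 over 3 ratios). With strand use not stated, reads of plus-strand RNA beyond the end of mt-Nd5 cannot be told apart from mt-Nd6. All minus-strand genes together held 0.00413 to 0.00662% of the total in Vehicle and 0.00454 to 0.00832% in AG636, which overlapped.

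The overlapping mRNA pairs of the plus strand are each carried on 1 RNA. In the pair mt-Atp8 and mt-Atp6 both genes fell, and mt-Atp8 had 22.8, 30.0, 24.2 and 32.1 counts for each count of mt-Atp6 in Vehicle and 30.8, 26.4, 39.0 and 22.1 in AG636. The groups overlapped fully. The log2 ratio was 4.74 ± 0.236 in Vehicle and 4.82 ± 0.328 in AG636 (SD, n = 4), a difference of 0.07 (two-sided exact permutation p = 0.714, adjusted p = 0.714 over 3 ratios). Of the stretches of 50 bases in mt-Atp6, 99.5% also occur in another transcript, against 0% in mt-Atp8. Gm10925, a copy of mt-Atp6, held 860 counts over all samples, against 330 for mt-Atp6. Reads of mt-Atp6 and of this copy cannot be told apart, so the ratio does not settle how the RNA of the pair changed. The pair mt-Nd4l and mt-Nd4 could not be compared in this way, since mt-Nd4l had 3 counts in all 8 samples against 340380 for mt-Nd4. The log2 ratio of this pair, a difference of 1.81, is set by the pseudocount of 0.5 and says nothing about mt-Nd4l.

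**Figure D4:**
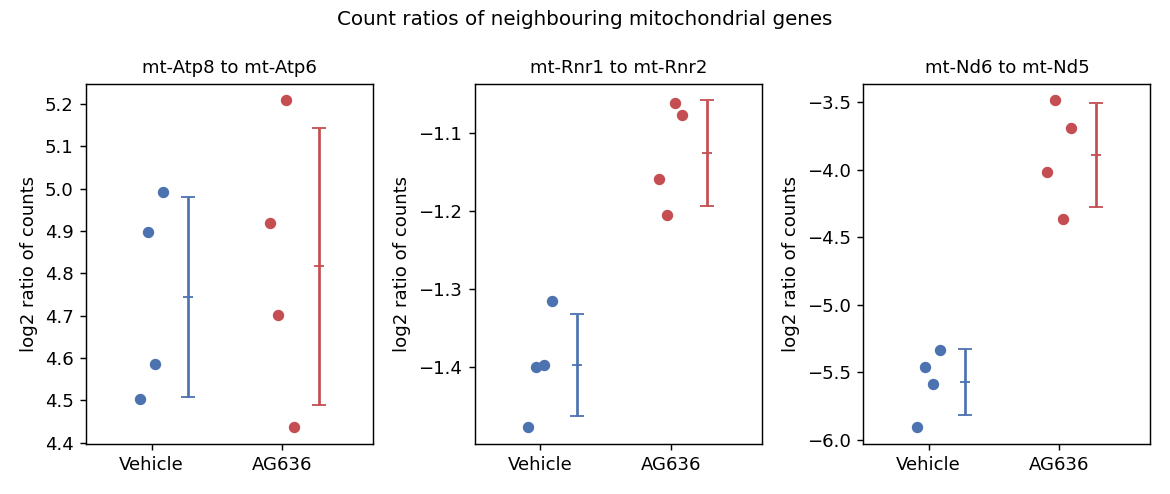
Log2 ratio of counts within each sample for mt-Atp8 to mt-Atp6, mt-Rnr1 to mt-Rnr2 and mt-Nd6 to mt-Nd5, with points for the 4 samples per group and bars for the mean and SD; the vertical axes do not start at 0. The first ratio overlaps between groups, and the other ratios are higher in all 4 AG636 samples.

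The counts of the mRNA genes spanned a very wide range, from 3 for mt-Nd4l to 370378 for mt-Nd1, and copies of mitochondrial DNA elsewhere in the genome bear on the low end. Stretches of 50 bases of each member were searched in all other GENCODE M21 transcripts of the same build. In 10 of the 37 genes at least 1 such stretch was found, and in 5 mRNA genes over 95% of them were: mt-Co2 (100%), mt-Co3 (99.9%), mt-Atp6 (99.5%), mt-Nd4l (98.8%) and mt-Nd3 (98.0%). These 5 were also the mRNA genes with the fewest counts, at 385, 188, 330, 3 and 42 over all samples. mt-Nd1, mt-Cytb, mt-Atp8 and mt-Nd6 had no copied stretch, and in mt-Nd4 62.2% of stretches were copied but none of the last 250, where a 3′ library reads. mt-Co1 was the exception: all of its last 250 stretches were copied, and it still had 182320 counts. How reads with several equally good places were counted is not stated, and the part of this in the low counts was not tested.

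**Figure D5:**
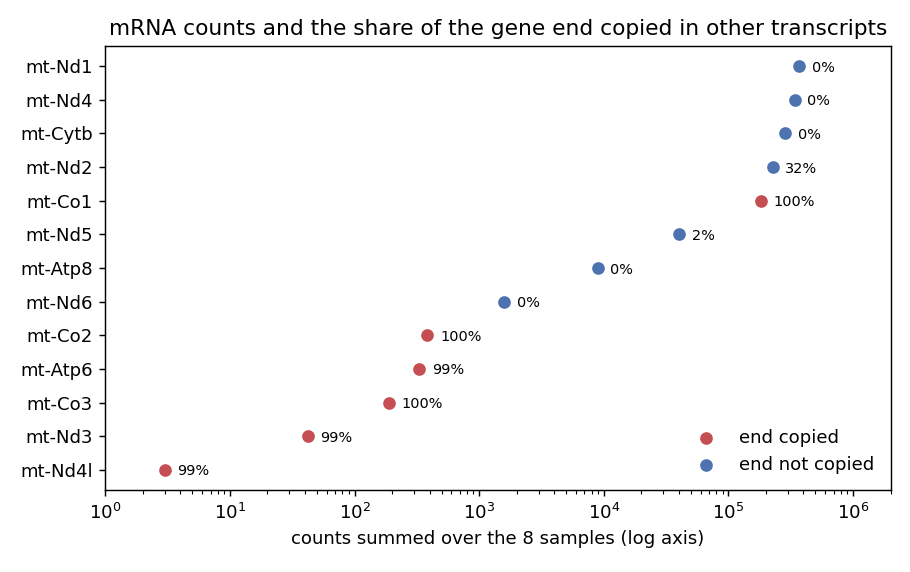
Counts summed over the 8 samples (log axis) for the 13 mitochondrial mRNA genes, ordered by count. The number beside each point is the percent of the last 250 stretches of 50 bases that also occur in another annotated transcript, and the 5 genes with the fewest counts all lie at 98.8% or more.

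The copies themselves were measured under their own names. Of 14 copies with a row of counts, 9 were tested, and 6 were called lower and 0 higher in AG636 by limma-voom. Among all tested genes, 8.49% were called lower and 5.47% higher. Gm10925, a copy of mt-Atp6, stood at 30.6, 21.4, 26.0 and 20.1 CPM in Vehicle and at 8.09, 7.98, 7.66 and 8.82 CPM in AG636, a log2 fold change of −1.56 (adjusted p = 0.00178 by limma). Gm13341 and Gm28661, copies of mt-Co2, had values of −1.28 and −1.34, Gm28437 of mt-Co3 −1.24, Gm28438 of mt-Nd3 −2.66 and Gm28439 of mt-Nd4 −1.81. Gm28438 and Gm28439 passed the filter on their Vehicle counts. Their AG636 samples held 4, 9, 0 and 6 counts of Gm28438 and 3, 5, 4 and 2 of Gm28439. The copies of mt-Co1, Gm29216 (−0.28) and Gm13340 (0.03), were not called (limma adjusted p = 0.604 and 0.954). Summed with its copy, mt-Nd3, itself below the filter, had 4.55 ± 1.75 CPM in Vehicle and 1.24 ± 0.451 CPM in AG636 (SD, n = 4). Reads of a gene and of such a copy cannot be told apart in these counts, so the values for mt-Co2, mt-Co3, mt-Atp6, mt-Nd3 and mt-Nd4l and for their copies are uncertain. Reads from the 3′ end of mt-Co1, where all of the last 250 stretches were copied, carry the same limit.

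Position and base composition were compared with the changes as a description across genes, which share the same 8 libraries and are not independent. Along the plus strand the log2 fold changes of the mRNAs were, in order, −0.81 for mt-Nd1, −1.36 for mt-Nd2, −0.06 for mt-Co1, −1.27 for mt-Co2, −1.40 for mt-Atp8, −1.47 for mt-Atp6, −1.21 for mt-Co3, −2.18 for mt-Nd4, −0.75 for mt-Nd5 and −2.41 for mt-Cytb. The correlation with the start of the gene was −0.58 (Pearson) and −0.44 (Spearman) over these 10 genes. mt-Co1, mt-Co3 and mt-Nd5 lay above their neighbours on both sides. The percent of pyrimidine bases in the gene correlated with the change at −0.45 (Pearson) and −0.49 (Spearman) over all 26 tested members, but at −0.19 and −0.16 within the 10 plus-strand mRNAs, and mRNA and tRNA genes differ in base content. The length of the longest run of A, at which internal priming can start, had correlations of 0.26 and 0.28 within the plus-strand mRNAs.

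Nuclear genes that work with these RNAs were described from lists chosen with earlier results known. Of 77 nuclear genes for respiratory chain subunits 76 were tested, and 12 were called lower and 0 higher by limma-voom, with a median log2 fold change of −0.14. For comparison, 8.49% of all tested genes were called lower and 5.47% higher. Sdhd, a membrane anchor of complex II, fell most, from 83.1 ± 17.5 to 39.2 ± 6.97 CPM (SD, n = 4; log2 fold change −1.08, adjusted p = 0.00466 by limma). Uqcr11 of complex III had a value of −0.60 (adjusted p = 0.00387) and Ndufb7 of complex I −0.53 (adjusted p = 0.0154). By complex, the called genes were 4 of 36 in complex I, 1 of 4 in complex II, 1 of 9 in complex III, 2 of 11 in complex IV and 4 of 16 tested in complex V.

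Among 57 nuclear factors of mitochondrial transcription, RNA processing and DNA replication, all tested, 11 were called lower and 2 higher, with a median of −0.27. The shares of all tested genes were 8.49% called lower and 5.47% called higher. Polrmt, the mitochondrial RNA polymerase, had 25.1 ± 1.25 CPM in Vehicle and 24.1 ± 2.46 CPM in AG636 (log2 fold change −0.06, adjusted p = 0.754 by limma), a sign that turned with library size alone (0.0095). Tfam, which packages mitochondrial DNA and starts transcription, fell from 120 ± 4.20 to 89.9 ± 6.38 CPM (−0.42, adjusted p = 0.00898). Lrpprc and Slirp form a complex that keeps mitochondrial mRNAs stable. Lrpprc had a value of −0.55 (adjusted p = 0.163, called only without AG636 sample 4), and Slirp fell with a value of −0.38 (adjusted p = 0.0366), a call that was lost in 8 of 20 alternatives over adjusted p of 0.0205 to 0.133. The largest falls were in Mrpl12 (−0.91, adjusted p = 0.00106), a protein of the large mitochondrial ribosomal subunit, Mrm3 (−0.76, adjusted p = 0.0121), a methyltransferase of the 16S rRNA, and Ptcd3 (−0.62, adjusted p = 0.00502), a small-subunit factor. The genes called higher were Primpol (1.25, adjusted p = 0.00755), a primase and polymerase of nucleus and mitochondria, and Mterf1a (0.88, adjusted p = 0.0291), a homologue of the factor that binds the gene of mt-Tl1 behind the rRNAs. The call of Mterf1a was lost in 5 of 20 alternatives, among them leaving out Vehicle sample 1, 3 or 4 or AG636 sample 2, over adjusted p of 0.00537 to 0.0937.

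These list counts depended on single samples too. The respiratory chain count was 4, 5 and 6 without Vehicle samples 3, 4 and 1, and the factor count was 6, 6, 7 and 8 without Vehicle sample 3, Vehicle sample 4, Vehicle sample 1 and AG636 sample 2, against 13 with all samples. Without Vehicle sample 4 and AG636 sample 3 together both counts were 5.

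Other measures moved with the treatment in the same libraries. Of 4 RNAs kept in the nucleus 3 were tested: Malat1 (0.51) and Neat1 (1.06) were called higher and Kcnq1ot1 (−0.46) lower by limma-voom. AG636 sample 3, the lowest sample for the plus-strand mRNAs, had the most Neat1, at 276 CPM against 68.2 to 81.6 CPM in Vehicle. The 6 B cell markers summed to 5.38 to 13.4 CPM in Vehicle and 10.7 to 22.5 CPM in AG636. Of the 5 that were tested, only Cd79a was called higher, where 5.47% of all tested genes were. Cd79a had means of 0.609 CPM in Vehicle and 2.14 CPM in AG636 and passed the filter on its AG636 counts. Only 1 of 8 T and NK cell markers (3.50 to 9.32 and 4.95 to 20.7 CPM) had enough counts to be tested. Of 11 mature myeloid markers (45.6 to 106 and 18.7 to 210 CPM) 6 were tested. None of these tested genes was called. The part of these RNAs and cells in the mitochondrial results was not tested.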

How the data were processed

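RNA of 8 samples (4 Vehicle, 4 AG636) was measured with QuantSeq 3′ libraries. The authors trimmed reads with cutadapt, mapped them to mm10 with HISAT2 and deposited raw counts per gene made with the subread package; the submitters' processing notes give cutadapt 1.9.1, HISAT2 2.0.4 and Subread 1.5.0-p3. The methods of the study name other versions of cutadapt and subread. Strand, multi-mapping and overlap settings are not given in the sources used here.

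Genes were kept with filterByExpr (minimum count 10), scaled by TMM and fitted with voom in limma 3.58.1 (edgeR 4.0.16, R 4.3.3) with group as the only term. Adjusted p-values are those of Benjamini and Hochberg across the 10911 tested genes. Tested on simulated counts of 10785 genes, this fit recovered 71.6% of 197 genes changed by 1 log2 unit, with 6% false calls. The simulation used the same dispersion in both groups and let no sample stand apart, which these data do not match. Its rates therefore do not carry over directly to the members. Ratios within a library used a pseudocount of 0.5 and the exact permutation test. Whole-library depth was 6120030 to 7162036 counts. Nothing in the labels says that samples of a group came from separate mice, so p-values measure the spread between these samples. All pairs of samples in a group differed beyond sampling noise. Alternatives were other tests, scalings and filters, a stricter threshold, the replicate number as a block and single samples left out. The text names all 37 members, from each nuclear list the 3 called genes with the largest change in each direction, and Polrmt, Tfam, Lrpprc and Slirp. Marker, nuclear-retained and copy genes are named where a result turns on them. The members and lists were chosen with earlier results of these data known. Gene ends and copies were taken from GENCODE M21 transcripts.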

Additional observations from a re-analysis of the deposited data

Results flagged for a closer look

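Of 100 sets of 4 values compared (each tested member, share and ratio in each group), 2 held a sample that stood apart by Dixon's criterion, where chance gives about 1 in 20. In Vehicle sample 4, mt-Nd4 took 10.6% of the mitochondrial counts, against 13.7 to 14.2% in the other Vehicle samples. In Vehicle sample 3, mt-Co1 took 8.10% of the mitochondrial mRNA counts, against 9.31 to 9.51% in the others. In AG636, mt-Nd4 took 1.88 to 4.49%, below every Vehicle sample, and mt-Co1 15.7 to 29.9%, above every Vehicle sample.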

How the results depend on the processing

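Of the single genes compared across alternatives, 685 values kept their direction and side of the threshold, 41 lost the call, 13 gained it and 13 changed sign. The sign changes were in genes that were not called: mt-Co1 (0.0082 with library size alone, 0.0297 and 0.0233 without AG636 sample 3 or 4, 0.0491 without Vehicle sample 4 and AG636 sample 3), mt-Tw (−0.24, −0.15 and −0.20 without Vehicle sample 3, AG636 sample 2 or 4), mt-Tc (0.14 with quality weights, and 0.14, 0.13 and 0.0889 without Vehicle sample 4, AG636 sample 2 or 4) and Polrmt (0.0095 with library size alone, 0.0034 without AG636 sample 1). With single samples left out, the values ranged from −0.18 to 0.0297 for mt-Co1, from −0.24 to 0.35 for mt-Tw, from −0.33 to 0.14 for mt-Tc and from −0.11 to 0.0034 for Polrmt. The difference in the log2 ratio of mt-Atp8 to mt-Atp6 became −0.12 with a pseudocount of 5. Adjusted over all 4 ratios, mt-Nd4l to mt-Nd4 included, the exact p of the rRNA ratio and of mt-Nd6 to mt-Nd5 was 0.0381; leaving that pair out was chosen after seeing the data.

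The count of mRNA genes called lower was 9, and 3 at an adjusted p under 0.01. It ranged from 5 to 9 with single samples left out. Where 10 counts were required in every sample, mt-Atp6 and mt-Co3 were not tested, as each had 9 counts in AG636 sample 3. The count called higher was 0, and 1 (mt-Nd6) with edgeR, DESeq2, limma-trend, quality weights, library size alone, the replicate block and without Vehicle sample 4 and AG636 sample 3 together, with 0 to 1 when single samples were left out. Both rRNA genes (2) were called with DESeq2 and with no filter. The tRNA genes called higher were 2, not 4, with 10 counts in every sample and 6 with no filter. The 13 nuclear RNA factor genes became 8 with library size alone and with no filter, 4 at 0.01 and 5 without the 2 samples together, and ranged from 6 to 15 with 1 sample left out. The 12 respiratory chain genes became 2 at 0.01 and 5 without those 2 samples, with a range of 4 to 15. Library size alone called 918 genes higher and 571 lower, against 597 and 926. A stricter threshold can only leave fewer calls, while leaving out a sample gave fewer or more calls over all genes. Without Vehicle sample 3, 221 genes were called higher and 467 lower, and without AG636 sample 3, 769 and 937. The cause of these differences was not tested.

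The replicate numbers did not pair the samples: deviations of same-numbered samples correlated at −0.14, 0.01, 0.20 and 0.14. With the replicate block 8 mRNA genes were called lower and 5 tRNA genes higher. Permuted within pairs, the 4 ratios could not go under an exact p of 0.125, and with a sample left out they were compared as values with no test. Depth limits the tRNA genes most: 9 of 22 had too few counts to test.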
